A study of Homo sapiens with 52 samples.

Results

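The antigen receptor loci are the gene clusters from which lymphocytes assemble their immunoglobulins and T cell receptors. Contact of these loci with the nuclear lamina was measured in single cells of KBM7, an established line of human chronic myeloid leukaemia. The 6 loci were taken as fixed intervals of the human genome build hg19, each with 1 Mb on either side. They are the immunoglobulin kappa (IGK), heavy chain (IGH) and lambda (IGL) loci and the T cell receptor alpha/delta (TRA/TRD), beta (TRB) and gamma (TRG) loci. Bins of 100 kb with a value in every cell were kept, which left 54 bins inside the loci and 100 in their flanks, of 26584 such bins in the genome.

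All cells came from clone 14, a clone with a ploidy of 2N, and all carried Dam fused to Lamin B1. Lamin B1 is a structural protein of the lamina, and Dam marks nearby DNA by adenine methylation. Methylation was induced for 15 h with 0.5 nM Shield1, a small molecule that stabilises proteins carrying its binding domain. The cells sorted were the smallest 2% among those positive for both Fucci cell cycle markers. The labels give 1 group of 52 cells, and the 51 with a column were used. No separate cultures are named, so these cells count as 1 sample of 1 clone, SDs describe the spread between cells, and no p-value is given. An SD here is not the error of a mean, so a difference within its SD is not thereby shown to be absent. A cell without the Lamin B1 fusion was not analysed here. KBM7 is of myeloid origin, so nothing here describes a lymphocyte.

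Each of these loci holds arrays of variable (V), joining (J) and, in some, diversity (D) segments, followed by the constant (C) genes. Developing B and T cells join 1 segment of each kind by V(D)J recombination, which the RAG1 and RAG2 proteins start. Immunoglobulin loci rearrange in B cells and T cell receptor loci in T cells. In other cells the loci stay in their germline order. Studies of lymphoid precursors have described IGH and IGK at the nuclear periphery and their movement inward before recombination. Lamina-associated domains are as a rule long, poor in genes and weakly transcribed.

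The loci differ in size and content. RefSeq lists 49 V segments, 62 J segments and 2 C regions for TRA/TRD, and 44 V segments, 13 J segments and 2 C regions for TRB. TRG, the smallest, has 6 V segments, 5 J segments and 2 C regions. Among the immunoglobulin loci, IGH has 48 V segments, 27 D segments and 9 C regions. IGK has 44 V segments and 1 C region, and IGL has 37 V segments and 4 C regions. Pseudogenes come in addition. The constant genes lie on the low-coordinate side of IGK, IGH and TRG and on the high-coordinate side of IGL, TRA/TRD and TRB. The RefSeq table is on GRCh38 and served for names and gene order, so single segments were not placed in bins.

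Each value is an OE, the observed over the expected signal of a bin. A bin counted as contacted where its OE was 1 or more. Contact frequency is the share of the 51 cells in contact, and contact share is the share of a region's measured bins contacted in a given cell. Recovered reads, the whole numbers behind the ratios, totalled 50978 to 316463 per cell (median 142540). The expected number of a bin is the whole number by which its reads were divided, with a median of 316. Where OE equals 1, such a bin held 2.12 reads in the shallowest cell and 13.2 in the deepest. Single-bin calls in shallow cells therefore rest on few reads.

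The mean contact share of each of the 6 loci was below that of the genome. For TRA/TRD and TRG this difference was within its SD over cells. Over the measured genome 31.5% ± 3.56 (SD, n = 51 cells) of bins were contacted. The contact share was 16.6% ± 19.5 in TRA/TRD, 15.0% ± 18.0 in TRG, 9.63% ± 12.5 in IGK and 3.27% ± 9.44 in TRB. It was 0 in IGH and IGL in all 51 cells. For each pair of neighbours in this order down to TRB, the difference of the means is smaller than either SD over cells. The order was not tested, and it changed with the bins used. With bins of an expected number of at least 100 alone, IGK was at 2.94%, below TRB. Of the 54 locus bins, 31 were contacted in no cell, while 38.7% of all bins were of this kind. Most of these were the 13 bins of IGH and the 10 of IGL. IGK had 3 of 11, TRA/TRD 2 of 11, TRB 2 of 6 and TRG 1 of 3, so the pooled count does not describe each locus. No read in any cell was found in 11 of the 54 bins, against 7.47% of all bins. Contact in at least 1 cell was found for 23 of the 54 (61.3% of all bins), and in at most 5% of cells for 37 (46.7% of all bins). None was contacted in at least 50% of cells, a level reached by 32.1% of all bins. Contact in at least 20% of cells was found for 7 bins (42.9% of all bins), 5 in TRA/TRD, 1 in TRG and 1 in IGK. The median locus bin was contacted in 0 cells and the median bin of the genome in 4. Of the 100 flank bins, 57 were contacted in no cell, 13 in at least 50% of cells and 4 in at least 80% (20.9% of all bins).

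**Figure D1:**
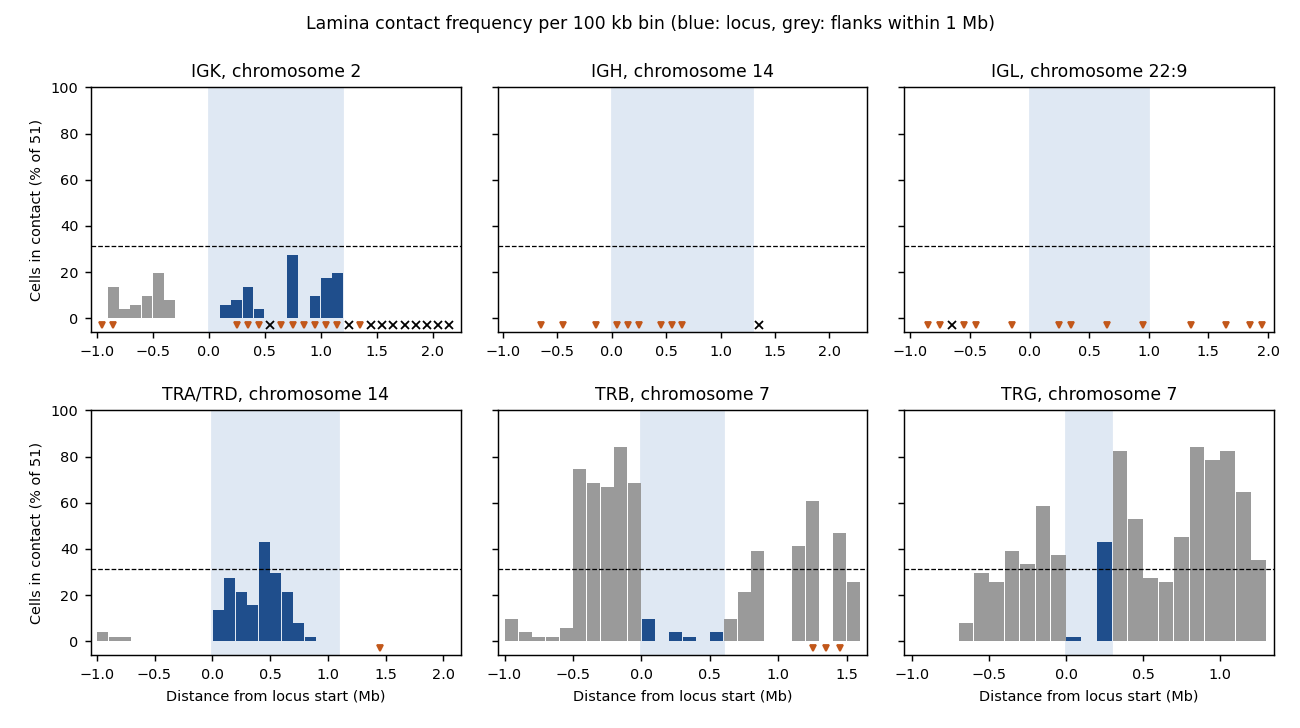
Contact frequency of each 100 kb bin, as the percentage of 51 cells in contact, against the distance in Mb from the low-coordinate end of each locus. Blue bars lie inside the locus (shaded) and grey bars in the flanks, the dashed line is the mean contact share of the genome (31.5%), crosses mark bins without a value, and triangles mark bins with an expected number under 100 or no read in any cell. TRA/TRD rises to 43.1% between flanks near 0, and IGH and IGL stay at 0. TRB is a low stretch just after an often contacted block of its low flank, with less contact in its high flank.

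TRA/TRD, where the delta chain genes lie inside the alpha chain locus on chromosome 14 (22000001 to 23100000), was contacted in some cells while its surroundings were not. All of its 11 bins were measured, each with an expected number of 252 to 437. At least 1 bin was contacted in 30 of the 51 cells and none in 21. The number of contacted bins per cell ran from 0 over a median of 1 to 7, reached in cells 7, 17 and 26. No cell was in contact over the whole locus. The longest uninterrupted contact was 7 bins, in 2 cells, and 10 cells had a run of at least 3 bins. The cells therefore ranged from no contact to contact over more than 0.5 Mb of the locus.

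Along the locus, contact frequency was higher on the low-coordinate side, with a smaller and a larger peak. In order along the chromosome, the bins were contacted in 7, 14, 11, 8, 22, 15, 11, 4, 1, 0 and 0 cells. The highest was the bin from 22400001 to 22500000, contacted in 43.1% of cells (95% Wilson interval 30.5% to 56.7%, which covers the counting of cells only). Its OE was 0 in 13 cells, 0.560 at the median and 3.94 in cell 17, and 10 cells reached an OE of 2. The last 2 bins, on the side of the J segments and the constant gene TRAC, held only 5 and 13 reads over all cells. The TRD genes lie between the V segments and the J segments of TRA. The largest step between neighbouring bins was from 8 cells to 22, between the bins starting at 22300001 and 22400001.

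The flanks of TRA/TRD were almost free of contact. On the low side, towards SALL2 (a zinc finger transcription factor) and METTL3 (an RNA methyltransferase), 0.784% ± 3.92 (SD, n = 51) of bins were contacted. On the high side no bin was contacted in any cell. DAD1 (a subunit of oligosaccharyltransferase) and ABHD4 come after the TRA/TRD segments in the gene order. Whether they lie in this flank or inside the locus interval was not determined. The 10 bins of the high flank held 1 to 13 reads over all cells where they held any. The locus exceeded its flanks by 16.2 points ± 19.5, with 29 cells higher, 21 equal and 1 lower. The mean difference is smaller than its SD. With flanks of 2 Mb on either side it was 4.27 points ± 17.8. The nearest bins contacted in at least 50% of cells lay 1.3 Mb away on the low side and 2.2 Mb away on the high side. Contact in TRA/TRD thus stood apart from those domains, in the bins from 22000001 to 22900000. Olfactory receptor genes OR10G2, OR4E2 and OR4E1 lie among the V segments, per the RefSeq gene order.

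Compared with the rest of its chromosome (31.4% ± 6.32), TRA/TRD was lower by 14.8 points ± 17.5 and lower in 41 cells. Against the genome it was lower in 40 cells and higher in 11. The 3 cells with 7 contacted bins had genome shares of 34.8%, 36.1% and 39.9%, all above the mean. Over the 51 cells, which share the clone but differ in depth, the contact share of the locus had a Pearson's r of 0.43 (Spearman's rho 0.33) with the share of the genome. With the rest of chromosome 14, flanks left out, r was 0.45 (rho 0.49). With recovered reads r was 0.20 (rho 0.09). After thinning all cells to 50978 reads the contact share of TRA/TRD was 15.2% ± 16.5.

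**Figure D2:**
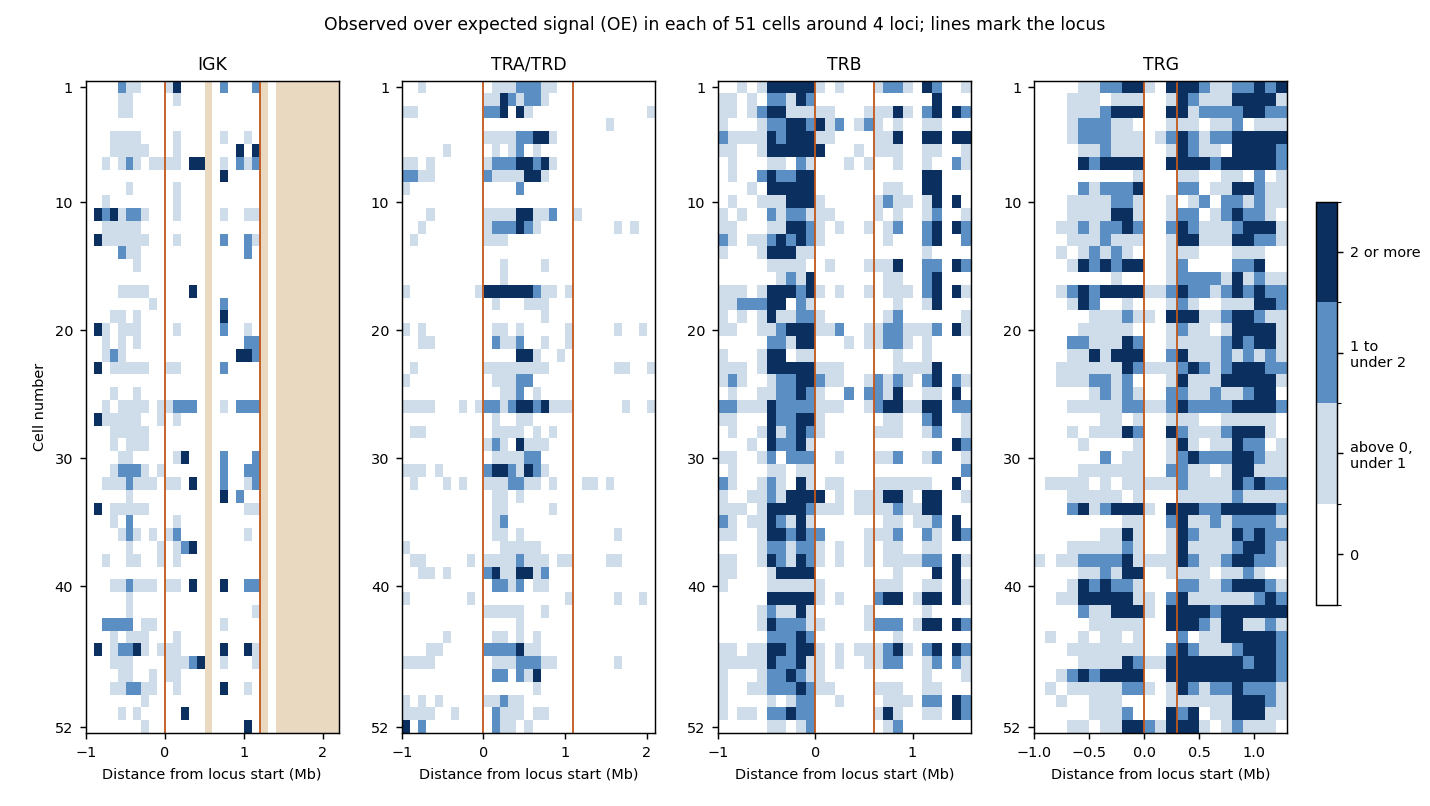
OE of every measured bin (columns, by distance in Mb from the low-coordinate end of the locus) in each of the 51 cells (rows, in order of cell number) for IGK, TRA/TRD, TRB and TRG. White is 0, light blue above 0 and under 1, mid blue from 1 to under 2, dark blue 2 or more, tan is no value, and orange lines mark the locus. TRA/TRD holds blocks of contact in part of the cells, and TRG darkens at its high-coordinate edge. TRB is pale in 44 cells, beside a dark block of its low flank and a more mixed high flank.

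TRB, the locus of the T cell receptor beta chain on chromosome 7 (142000001 to 142600000), was the reverse case. Contact was rare inside it, frequent in the bins just before it and weaker on its high side. Its 6 bins were contacted in 5, 0, 2, 1, 0 and 2 cells, in order along the chromosome. No bin was contacted in 44 of the 51 cells. Cells 6, 20, 24, 33 and 36 had 1 contacted bin, cell 25 had 2 and cell 4 had 3. The mean OE over the locus ran from 0 over a median of 0.0735 to 0.940. The highest single value was 2.49, in cell 33, in the first bin. The locus also contains PRSS1 and PRSS2, which encode trypsinogens of the pancreas, between its V segments and its D and J segments.

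The low-side border of TRB was sharp. The 5 bins just before it, from 141500001 to 142000000, were contacted in 38, 35, 34, 43 and 35 cells, and the first bin of the locus in 5. The most often contacted of them, from 141800001 to 141900000, was in contact in 84.3% of cells (95% Wilson interval 72.0% to 91.8%), with a median OE of 2.19 and no cell at 0. In contrast, the first locus bin had a median OE of 0.246 and 21 cells at 0. This contacted block was itself short. The bin before it, from 141400001, was contacted in 3 cells, which made the step to 38 cells the largest around TRB. The nearest genes on this side in the RefSeq order are PRSS58, MGAM2 and MGAM, the last encoding the intestinal enzyme maltase-glucoamylase.

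On the high side of TRB contact returned over a longer distance. EPHB6 (a receptor of the ephrin family) and the calcium channel genes TRPV6 and TRPV5 come after the TRB segments in the gene order. Whether they lie in the flank or inside the locus interval was not determined. The first 3 flank bins were contacted in 5, 11 and 20 cells, the next 2 in none, and the following 2 in 21 and 31. The bins from 143200001 and 143400001 had expected numbers of 90 and 26, and the bin between them held no read, so these frequencies are less certain. The contact share was 38.6% ± 16.0 in the low flank and 24.5% ± 19.7 in the high flank (SD, n = 51). Over both flanks the contact share was 31.6% ± 14.1, against 3.27% ± 9.44 in the locus. The difference of -28.3 points ± 16.4 was larger than its SD, and the locus was lower in 50 of 51 cells. TRB lay below the genome in 49 cells and below the rest of chromosome 7 (34.3% ± 4.80) in 49.

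Contact on both sides of TRB was also counted within the same cells. Since 44 of 51 cells had no contacted bin in TRB, most cells with contacted flanks lack it by that frequency alone. The counts therefore do not test a link between the locus and its flanks. Within 0.5 Mb on either side, 21 cells had contact on both sides of the locus, and 16 of these had none inside it. With 1 Mb on either side, the values were 39 and 34 cells. With the OE threshold raised to 2 and 0.5 Mb, they were 8 and 7. After thinning to 50978 reads they were 25 and 15. No cell had contact in TRB without contact in a flank. As 48 of the 51 cells had contact in the low flank, this was nearly given in advance.

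**Figure D3:**
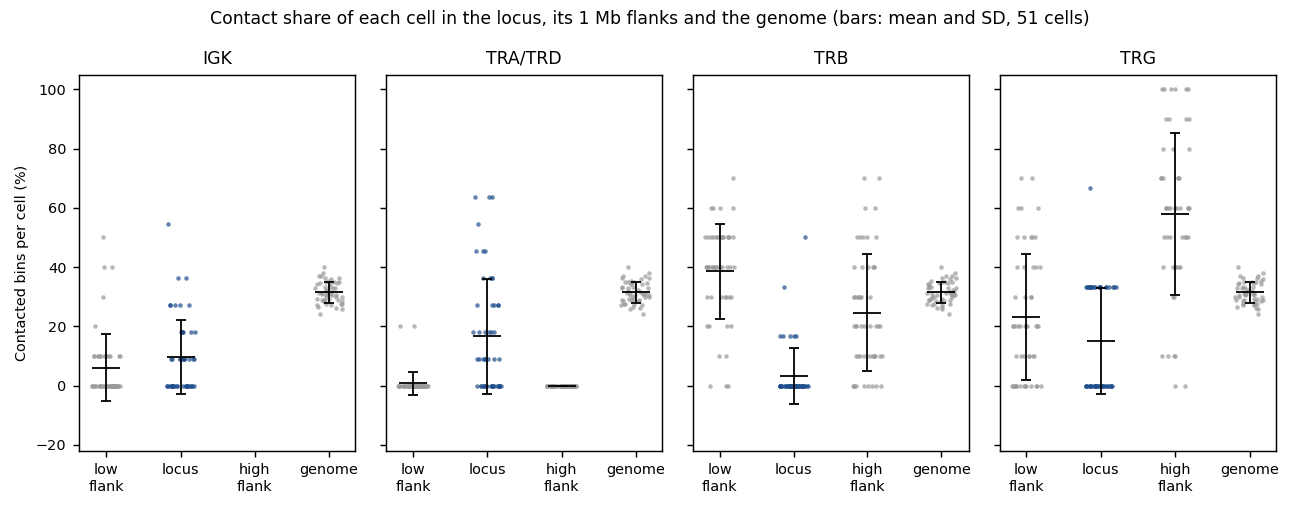
Contact share of each cell (points, percentage of measured bins) in the low-coordinate flank, the locus, the high-coordinate flank and the genome, for IGK, TRA/TRD, TRB and TRG; black bars are the mean and SD over 51 cells. The high flank of IGK is left out since 1 of its bins was measured. TRA/TRD stands above its flanks, and TRB stands below the low flank in 47 cells and equals it in 4.

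TRG, the locus of the T cell receptor gamma chain on chromosome 7 (38200001 to 38500000), lay between contacted flanks. Contact was low at its start and rose at its high-coordinate edge. Its 3 bins were contacted in 1, 0 and 22 cells, in order along the chromosome. In the gene order the constant genes TRGC1 and TRGC2 come first and the V segments after them, followed by AMPH. Which of these the third bin holds was not determined. The bin from 38400001 to 38500000 was contacted in 43.1% of cells (95% Wilson interval 30.5% to 56.7%). Its OE was 0 in 5 cells, 0.826 at the median and 5.64 in cell 42. The middle bin had an OE of at most 0.759. The step from 0 to 22 cells between these neighbours was the largest in the locus and its flanks.

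The contacted side of TRG continued into its high flank. The next bin, from 38500001, was contacted in 42 cells and the one after it in 27. The RefSeq order gives AMPH, encoding the nerve terminal protein amphiphysin, as the next protein-coding gene on this side, followed by VPS41. A second rise followed, with 43, 40 and 42 cells in the bins from 39000001 to 39300000. Cell 42 had the highest OE of any cell in the last TRG bin and in the 3 bins after it, from 12.4 in the first of these to 6.72 in the third. On the low side contact was weaker, with 19 and 30 cells in the 2 bins next to the locus. STARD3NL (an endosomal cholesterol-binding protein) comes before the TRG segments in the gene order. Whether it lies in the flank or inside the locus interval was not determined.

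The contact share of TRG was lower than that of its flanks (40.5% ± 20.1, SD, n = 51) by 25.5 points ± 21.4, and lower in 45 cells. Flanks of 2 Mb gave -11.6 points ± 17.1. Against the low flank alone the difference was -8.10 points ± 23.8, which is within its SD. Against the high flank (57.8% ± 27.3) it was -42.8 points ± 27.2. Against the genome it was -16.5 points ± 18.2, with 14 cells higher and 37 lower. Within 0.5 Mb on either side 34 cells were in contact on both sides, and 16 of them had no contacted bin in TRG. With the threshold lowered to an OE of 0.5, 43 cells were in contact on both sides and 9 of them not in the locus, and with a threshold of 2 the values were 15 and 7. Of the 13 flank bins past a contact frequency of 50%, 6 lay beside TRB, 6 in the high flank of TRG and 1 in its low flank.

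IGK, the kappa light chain locus on chromosome 2 (89100001 to 90300000), gave sparse contact that was hard to measure. A value was present in 11 of its 12 bins, 2 of which held no read in any cell, and 7 of the other 9 had an expected number under 100. Segmental duplication of the V segments in this locus is textbook knowledge. At an expected number of 8, in the bin from 89500001, a single read gave an OE of 5.48 in cell 7. The most often contacted bin, from 89800001 to 89900000, had an expected number of 70 and was contacted in 14 cells, or 27.5% (95% Wilson interval 17.1% to 40.9%). It lies beside a bin without reads, which made this the largest step around IGK.

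The 2 bins of IGK with an expected number of at least 100, on the side of the constant gene IGKC, were contacted in 0 and 3 cells. Over all measured bins 25 cells had no contact and cell 26, the deepest, had the most, 6 bins. The locus exceeded its flanks (5.53% ± 10.3) by 4.10 points ± 15.2, a difference within its SD. With bins of an expected number of at least 100 alone the sign turned, to -2.94 points ± 16.9. IGK lay below the genome by 21.9 points ± 11.5 and was lower in 48 cells. Its low flank, towards RPIA (a pentose phosphate enzyme) and EIF2AK3 (the stress kinase PERK), was contacted in at most 10 cells per bin. In its high flank 1 of 10 bins had a value, and that bin held no read. The contact share of IGK had an r of 0.35 (rho 0.27) with recovered reads over the cells.

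IGH, the heavy chain locus at the end of chromosome 14 (106000001 to 107300000), was contacted in no cell. Its 13 bins were all measured, and 5 of them held no read in any cell, against 7.47% of all bins. The expected number of such bins is unknown. The other 8 bins held 29 reads over all 51 cells, 0.0180 times the number that an OE of 1 would give. The highest OE was 0.628, from 1 read in cell 38 in a bin with an expected number of 43. For each bin with reads, 0 of 51 cells leaves room for a contact frequency of 5.88% (3 cells of 51) or, by the 95% Wilson interval, 7.00%, both for counting error only. All 10 bins of its low flank, where TMEM121, TEDC1 and CRIP1 precede the locus, were also contacted in no cell. The nearest bin contacted in at least 50% of cells lay 6.8 Mb away.

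IGL, the lambda light chain locus (22300001 to 23300000 on the sequence 22:9, which joins material of chromosomes 22 and 9), was likewise contacted in no cell. Its 10 bins were measured and 4 held no read in any cell. The other 6 held 17 reads over all cells, 0.0082 times the number at an OE of 1, and the highest OE was 0.386. None of the 19 measured flank bins was contacted. No bin of 22:9 reached a contact frequency of 50%. The rest of this sequence had a contact share of 0.710% ± 0.934. IGL therefore differed little from its chromosome, by -0.710 points. The locus also contains VPREB1 and IGLL5, related to the surrogate light chain of B cell precursors, and PRAME, a tumour antigen. GNAZ, RAB36 and BCR follow it on the high side. BCR is the gene joined to ABL1 in chronic myeloid leukaemia, so part of the high flank may be chromosome 9 material. The position of the join was not used here.

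IGH and TRA/TRD lie on the same chromosome. The 857 other bins of chromosome 14 had a contact share of 31.4%, so IGH lay 31.4 points ± 6.32 below its chromosome and was lower in each of the 51 cells. With the threshold lowered to an OE of 0.5, 1 cell had contact in IGH, for a share of 0.151%. IGL stayed at 0 at that threshold.

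The constant-gene side and the variable-gene side of each locus, split at the middle of its interval, were compared next. The sides are named by gene order, and single segments were not placed in them. A constant side may therefore also hold V segments, and the sides do not separate the 2 kinds of gene. In TRA/TRD the constant side was contacted in 6.27% ± 11.7 of bins and the variable side in 24.3% ± 30.0 (SD, n = 51). The difference of -18.0 points ± 26.9 is within its SD, with 24 cells lower on the constant side, 2 higher and 25 equal. In TRG the sides are 1 bin each, contacted in 1 and 22 cells, and the constant side was lower in 21 cells and equal in 30. The middle bin of TRG, contacted in 0 cells, belongs to neither side. Whether the bin on the variable side of TRG holds V segments was not determined. In IGK the constant side differed from the variable side by -6.14 points ± 18.3 and in TRB by -2.61 points ± 14.7. Neither of these exceeds its SD. IGH and IGL had no contact on either side.

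Reads gave the same comparison without a threshold. Relative to an OE of 1, the variable side of TRA/TRD held 0.679 times the reads and the constant side 0.183 times. In TRG the values were 1.35 and 0.141, in IGK 0.492 and 0.226, and in TRB 0.203 and 0.126. The TRG values rest on 1 bin each. The variable-side bins of IGK with reads had an expected number of at most 70. In TRB, 102 of the 164 reads on the variable side lay in the first bin, beside the contacted low flank. The variable side was also the higher in IGH, at 0.0194 against 0.00904, although the constant side rests on 2 reads and 4 of its 6 bins had none. In IGL the order was turned, at 0.00383 on the variable and 0.0126 on the constant side, from 4 and 13 reads.

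**Figure D4:**
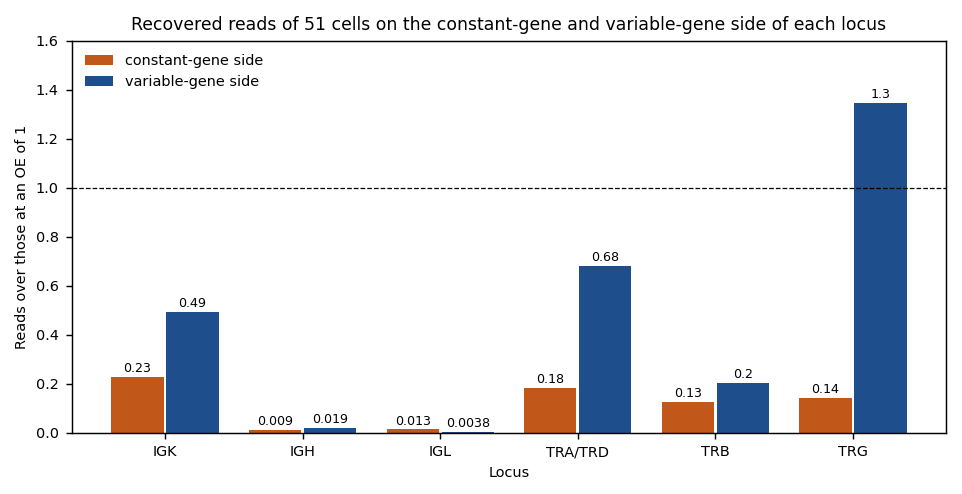
Recovered reads of all 51 cells on the constant-gene side (orange) and the variable-gene side (blue) of each locus, divided by the number an OE of 1 in every bin with reads would give (dashed line at 1). The sides are parts of the interval, and a constant side may also hold V segments. The variable side is higher in TRA/TRD, TRG, IGK and TRB. IGH and IGL are near 0 on both sides and differ in direction, from 2 and 27 reads on the constant and variable side of IGH and 13 and 4 in IGL. In TRG the variable side reaches 1.35, from 1 bin whose gene content was not determined. In TRB, 102 of the 164 reads on the variable side lie in the first bin, beside the contacted low flank.

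Whether loci were contacted in the same cells was described by correlations of their contact shares over the 51 cells, with the genome share of each cell subtracted, for the 6 pairs of loci with any contact. Cells share the clone and differ in depth. TRA/TRD with IGK gave a Pearson's r of 0.32 (Spearman's rho 0.17), TRA/TRD with TRG 0.31 (0.34) and TRA/TRD with TRB -0.32 (-0.31). TRB and TRG, both on chromosome 7, gave -0.11 (0.13). The remaining pairs lay between -0.18 and 0.07. Without the subtraction, IGK with TRA/TRD gave 0.42, TRA/TRD with TRG 0.35, TRA/TRD with TRB -0.22 and TRB with TRG -0.16. TRA/TRD with TRG fell to 0.17 on mean log2(OE + 0.1), and the sign of TRB with TRG turned on that scale. TRG had an r of 0.37 (rho 0.37) with its own flanks, and TRA/TRD 0.02 (0.08) with its own.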

How the data were processed

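Single-cell DamID of Lamin B1 was measured in KBM7 clone 14. Per the submitters' processing notes, cutadapt and Bowtie2 2.1.0 were run with hg19. As deposited, each value is a ratio, the observed signal divided by an expected one (OE), for 30376 bins of 100 kb. How the expected value was made is not given in the sources used here. Bins without a value (3792) and cell 47, which has no column, were not used.

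Whole reads were recovered by factoring each ratio into reads, a scale for the cell and the expected number of the bin. With a tolerance of 0.02 reads, 100% of the nonzero values were whole. Whether such a read is a read or a distinct site is not given in the sources used here. In bins with few reads the expected number is the smallest that fits. Tested on simulated data over 26584 bins, 99.6% of values were recovered. No 2 cells had identical columns.

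The loci were given as intervals, and loci, flanks and lists were chosen with earlier results of these data known. Named were all 6 loci, their most and least contacted bins and largest steps. Genes of recombination and receptor signalling, planned only with hg19 positions, were not analysed. The comparison of both sides in the same cell, and the omission of the 5 shallowest cells, were added after the data were seen. Alternatives were contact at an OE of 0.5 or 2, the 30% of bins highest in a cell, mean OE, bins with a read, an expected number of at least 100, thinning, odd-numbered or even-numbered cells and other flanks. Python 3.11.15, numpy 2.4.6 and pandas 2.3.3 were used.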

Additional observations from a re-analysis of the deposited data

How the results depend on the processing

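Values under the alternatives were set against the SD over cells. This SD is wide, so staying within it does not show that a value is stable. The contact share of IGK counted as within it at 2.94%, from 9.63%. That of TRA/TRD did so at 5.88%, from 16.6%. Of 336 values recomputed under the alternatives, 308 stayed within 1 SD over cells (same-cell counts, within 1.5 times), 25 moved further and 3 changed sign. With bins of an expected number of at least 100, IGK minus its flanks was -2.94 points, from 2 locus bins. In odd-numbered cells the constant side of TRB was higher than the variable side by 1.33 points, and on mean log2(OE + 0.1) TRB and TRG correlated at 0.00908. For these the cause was not tested. The others that moved were IGH and IGL, whose own SD is 0, single bins, the same-cell counts given above and TRA/TRD with TRG. With the OE threshold at 0.5, the share of IGH and its difference from its flanks were 0.151, its sides differed by 0.327 points and IGL minus its flanks was -0.206. IGH and IGL minus the genome were then -38.6 and -38.8 points, and IGH minus its chromosome -39.4. With the threshold at 2 these were -20.0, -20.0 and -18.5. After thinning, IGL was contacted in 0.196% and lay -0.0103 points from its flanks, or -0.0516 points with flanks of 2 Mb and all reads. Between thresholds of 2 and 0.5 the contact share went from 5.88% to 25.7% in TRA/TRD, and the most contacted bin from 19.6% in TRA/TRD and 23.5% in TRG at a threshold of 2 to 72.5% in TRG at 0.5. Without the 5 shallowest cells the shares were 18.2% in TRA/TRD, 16.7% in TRG, 10.3% in IGK and 3.62% in TRB. TRB minus its flanks ranged from -40.1 to -15.4 points, TRG from -42.8 to -8.10 and TRA/TRD from 4.27 (flanks of 2 Mb) to 24.2. Precision is limited in IGK, where 7 bins had an expected number under 100, and in IGH and IGL, where 5 and 4 bins held no read.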
